A study of Mus musculus with 4 samples.

Results

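The genes described here are 38 genes of the NF-κB system, namely its DNA-binding subunits, the regulators that hold it back or switch it on, and survival genes that it controls. They were followed by RNA-seq in myeloid cells sorted from mouse skin tumours. All 38 names were found in the deposited table of 23420 genes, and all 38 had a normalised read count of at least 10 in at least 2 of the 4 libraries, as did 12463 genes in all. The lowest single value of any member was 78.2, for Bcl2a1d, so no member lay near this minimum. The sorted cells carried CD11b, a myeloid integrin, and CD200R1, the inhibitory receptor for the surface protein CD200, and were taken from cutaneous squamous cell carcinomas grown orthotopically in the FVB/N strain. The WT group has 2 libraries, from CD200-positive wild-type tumours. The EpiKO group (K14Cre;CD200fl/fl) has 2 libraries, from tumours that lack CD200: its floxed Cd200 is deleted where the K14 keratin promoter drives Cre, in epithelial cells, so that other host cells keep the gene. Both groups were sorted on CD200R1 and share the strain. The labels state neither age nor whether a library is 1 mouse or a pool, so p-values measure only the spread between these libraries, which may be technical.

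NF-κB is a family of transcription factors that work as pairs of subunits. In resting cells the pairs are held in the cytoplasm by IκB proteins. In the canonical route, receptors for TNF, IL-1 and microbial products act through TRAF and cIAP adaptors on the IKK kinase complex, which marks IκB for destruction and frees the pairs containing RelA or c-Rel. In the alternative route, receptors such as CD40 and RANK stabilise the kinase NIK, which leads to p52 and RelB. Many of the genes that NF-κB switches on encode its own subunits and inhibitors, so the system feeds back on itself, and in macrophages it also drives cytokine and survival genes.

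Because NF-κB binds κB sites, the promoters of the members were searched first. The motif searched was the κB consensus of the NF-κB family, a run of G, a purine, any base, A or T, pyrimidines and a closing pair of C, on both strands, in the 250 bases before each gene start in RefSeq (GRCm38.p6, the build of mm10). A gene can have several starts there, and a match before any of them counted. Of the 38 members, 34 had a promoter entry, and 13 of these (38.2%) held a match. The match was in 1 of 3 windows for Nfkbid and Bcl2l1, 1 of 2 for Tnfaip3 and 2 of 4 for Tank. Nfkb1, Relb, Nfkbiz and Ikbkb had no entry. For Nfkb2, Nfkbid, Tank, Tnfaip3, Tnip3, Bcl2l1 and Sod2 a matching window lay wholly or mostly inside the gene as annotated in GENCODE M21. In Nfkb2 and Bcl2l1 all 250 bases of it were annotated exon. Such matches are not upstream of the whole gene. The same motif was found before 514 of 9287 tested genes with an entry (5.53%). Many members are known κB targets and were listed for it, so this share describes the list. By role, a match was found for 4 of 5 ubiquitin-editing brakes, 3 of 5 IκB proteins and 2 of 3 subunits, but for 1 of 7 TRAF and cIAP genes and 1 of 6 kinases and adaptors. Among members whose 2 groups did not overlap, a match was present in 8 of 18 lower in EpiKO and in 1 of 5 higher in EpiKO, Bcl2l1. It was present in 4 of 11 members whose groups overlapped.

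The promoters of 5 members are shown, 5′ to 3′ on the gene's strand and ending at the base before the gene start, with matches in capitals. Nfkbie and Traf1 are shown because they were called, Traf3 and Tnip1 because their groups did not overlap, and Nfkbia because its groups did overlap. Only windows free of annotated exon bases are shown. The window of Birc3, the third called member, held 16 such bases and no match. Traf2, Cflar and Traf5, whose groups also did not overlap, held no match and are not shown. The same holds for Traf6 and Icam1, whose groups overlapped. Matches are therefore more frequent in the windows shown than among the members.
Nfkbie, chr17:45555450-45555699, plus strand: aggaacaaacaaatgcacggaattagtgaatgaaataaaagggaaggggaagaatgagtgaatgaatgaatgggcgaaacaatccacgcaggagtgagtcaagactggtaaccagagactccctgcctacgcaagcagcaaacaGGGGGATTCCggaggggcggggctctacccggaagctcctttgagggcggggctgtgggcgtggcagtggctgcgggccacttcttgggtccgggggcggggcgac
Traf1, chr2:34961773-34962022, minus strand: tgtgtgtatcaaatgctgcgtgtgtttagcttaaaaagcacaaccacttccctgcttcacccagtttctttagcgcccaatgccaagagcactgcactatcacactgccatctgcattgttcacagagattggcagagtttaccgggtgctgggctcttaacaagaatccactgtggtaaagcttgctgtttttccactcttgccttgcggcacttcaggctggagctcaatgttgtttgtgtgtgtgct
Traf3, chr12:111166120-111166369, plus strand: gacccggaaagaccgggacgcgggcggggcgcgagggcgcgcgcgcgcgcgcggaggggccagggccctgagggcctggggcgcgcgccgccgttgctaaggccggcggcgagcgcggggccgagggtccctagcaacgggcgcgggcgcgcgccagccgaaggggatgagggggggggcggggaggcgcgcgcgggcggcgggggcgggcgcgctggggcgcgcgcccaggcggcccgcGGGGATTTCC
Tnip1, chr11:54962941-54963190, minus strand: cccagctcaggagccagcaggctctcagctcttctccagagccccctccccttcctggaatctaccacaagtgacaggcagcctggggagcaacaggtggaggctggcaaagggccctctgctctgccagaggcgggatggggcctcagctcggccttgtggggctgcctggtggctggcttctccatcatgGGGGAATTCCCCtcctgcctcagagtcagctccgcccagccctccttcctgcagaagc
Nfkbia, chr12:55492648-55492897, minus strand: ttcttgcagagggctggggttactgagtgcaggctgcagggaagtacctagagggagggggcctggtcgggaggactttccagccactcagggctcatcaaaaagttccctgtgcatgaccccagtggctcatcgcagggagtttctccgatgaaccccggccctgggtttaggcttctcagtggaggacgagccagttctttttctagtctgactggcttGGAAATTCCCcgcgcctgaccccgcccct
The match of Nfkbie, GGGGGATTCC, begins 106 bases before the start, that of Traf3, GGGGATTTCC, 10 bases before it, and that of Nfkbia, GGAAATTCCC, 29 bases before it. In Tnip1 3 overlapping matches form a single palindromic run. Traf1 holds no match, which says only that these letters are not in this window. Elsewhere Nfkb2 held GGGAATTCCC, Rel held GGGAAATCCC and Nfkbid held GGGACTTCCC. Nfkbia, whose groups overlapped, and Traf3, whose groups did not, both carry a match close to the start. Whether a match goes with the change of a member was not tested.

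The libraries held 15884132 to 21244158 gene reads each. Macrophage and myeloid genes were abundant: all 11 listed markers passed the minimum and summed to 340106 to 505367 per library. One of them, the sort marker Cd200r1, measured 318 and 293 (WT) against 1101 and 612 (EpiKO) and did not pass (1.43 ± 0.29 log2 units, limma adjusted p = 0.115). Fibroblast genes summed to 18310 to 31582 per library. The 13 immediate early and heat shock genes summed to 196545 to 216319 per library. Of these, 4 had positive and 9 negative log2 fold changes, none past the test, and their part in the member levels was not tested. T and NK cell genes summed to 344 to 1960, of which Cd4 alone made 100.1 to 1755, with Cd3e at 0 to 2.32 and Cd8a at 0, and B cell genes to 20.5 to 82.3, with Pax5 at 0. Neutrophil genes summed to 1369 and 2795 in WT and to 759 and 1587 in EpiKO, and all 6 tested ones had negative log2 fold changes, none past the test. Keratinocyte genes summed to 4967 in WT replicate 1 and to 46.3 to 111 in the other libraries. The 7 dendritic cell genes summed to 1379 and 718 in WT and to 84.0 and 112 in EpiKO. Cd200 itself measured 92.7 and 59.7 (WT) against 17.2 and 15.1 (EpiKO), but K14Cre acts in other cells than the sorted ones, and the values leave the labels unchecked. A lower level in such bulk samples can mean fewer cells of a type or less RNA per cell, which cannot be told apart.

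Per kilobase of transcript, the most abundant member was Nfkbia, the gene of the classical inhibitor IκBα, with a level of 7254 normalised counts per kilobase in WT and 6051 in EpiKO. Nfkbiz and Bcl2a1b followed in WT at 2386 and 2365, which differed by less than the spread between their libraries, and Nfkbie and Tnfaip3 came next at 1689 and 1560. The subunits Nfkb2, Rela and Nfkb1 had nearly equal levels in WT, at 830, 826 and 819, while Relb was at 501 and Rel at 161. Traf5 was the lowest member in both groups, at 46.3 and 51.5. The places that moved most were those of Traf1, from 23 of 38 in WT to 37 in EpiKO, and of Ikbke, from 32 to 19. Lengths are those of the longest coding transcript in GENCODE M21, so another choice of transcript would shift single levels.

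**Figure D1:**
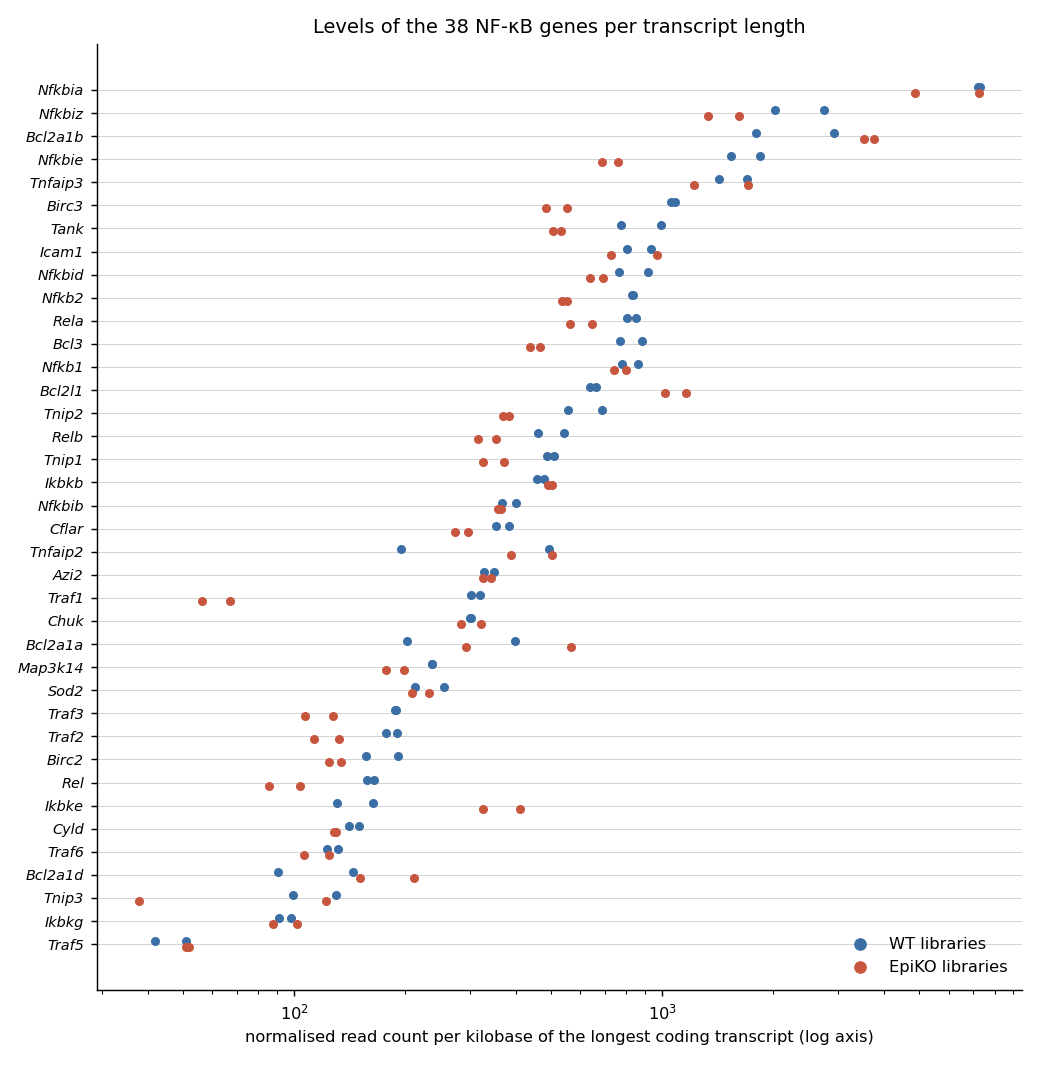
Normalised read count per kilobase of the longest coding transcript (log axis) for each of the 38 members, ordered by the WT mean, with 1 point per library (blue WT, red EpiKO). Nfkbia leads in both groups, and the red points of Traf1 lie far to the left and those of Ikbke far to the right of the blue ones.

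The comparison of EpiKO with WT asks how these genes depend on CD200 on the tumour. Of the 38 members, 3 fell in EpiKO and none rose (limma, adjusted p under 0.05 over all tested genes), against a background of 0.530% of tested genes called lower and 0.417% called higher. The 3 were Traf1, Nfkbie and Birc3, all of them genes that NF-κB is known to switch on. This holds for other members too, and does not set the 3 apart. The known targets Tnfaip3 and Icam1 had log2 fold changes of -0.11 and -0.047, with overlapping groups, and Bcl2l1 had 0.74. The dendritic cell sum given above, in WT mostly Cd207, was lower in both EpiKO libraries, while the neutrophil sums overlapped and Cd200r1 was higher in both EpiKO libraries. The part of these in the results was not tested. At an unadjusted p under 0.05 by limma, 17 members were lower (44.7%, against 7.57% of all tested genes) and 3 higher (7.89%, against 8.07%). In 20 members (52.6%) both EpiKO libraries lay below both WT libraries, against 23.8% of tested genes, and in 6 (15.8%) both lay above, against 23.3%. The median log2 fold change was -0.31 over the members and -0.0021 over all tested genes. The remaining 12 members overlapped between the groups. By sign alone 28 members were negative, against 50.3% of tested genes, and 10 positive, against 49.7%. Fold changes are on the scale log2(value + 1), EpiKO over WT, and are given in log2 units ± the moderated standard error (SE).

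**Figure D2:**
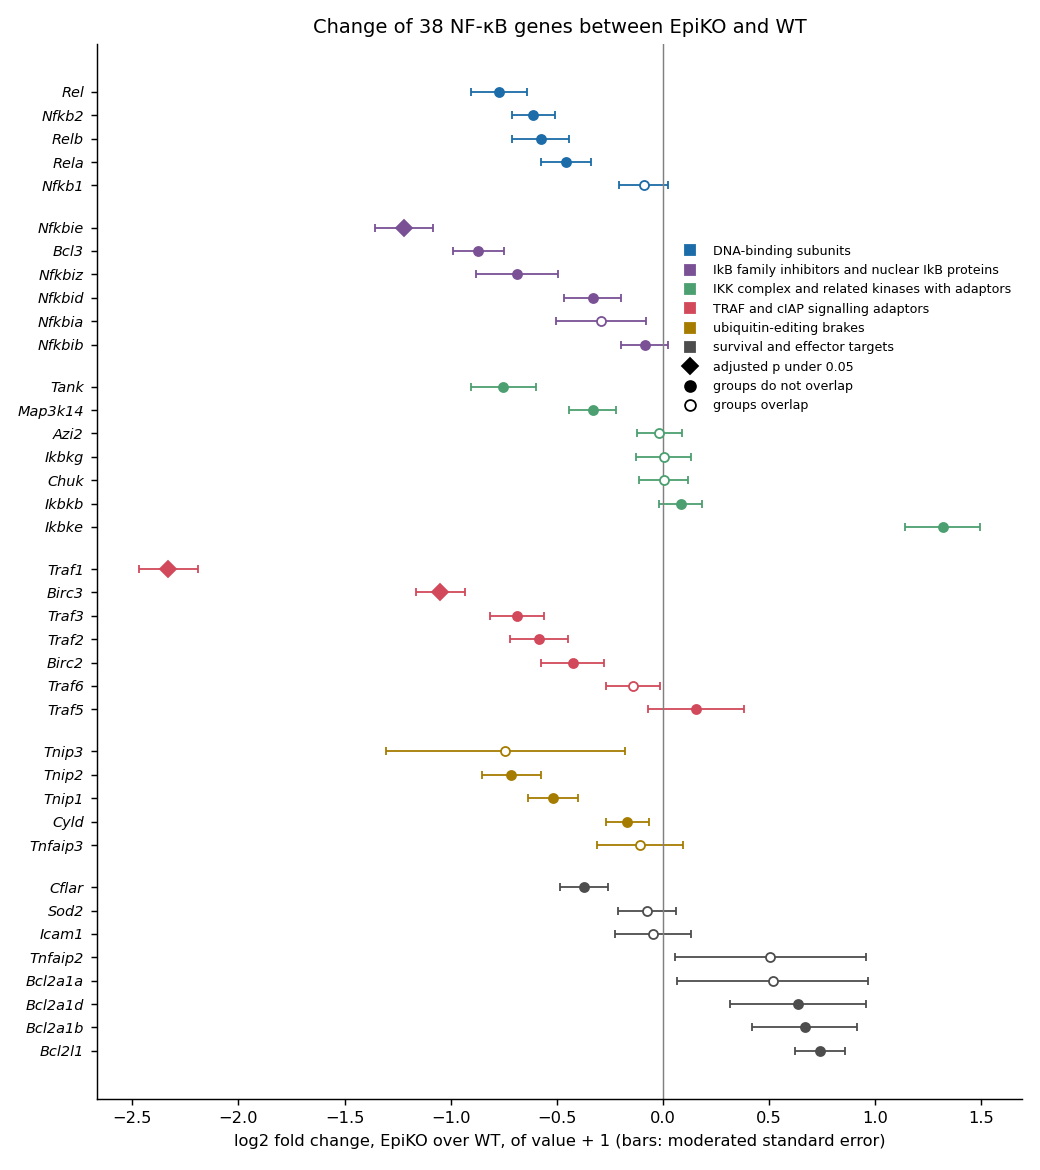
Log2 fold change of value + 1 with its moderated standard error (horizontal axis) for the 38 members by role. Diamonds mark the 3 called members, filled circles members whose libraries do not overlap between the groups and open circles those that do. Subunits, IκB proteins and brakes all lie left of 0, and the survival genes are split.

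**Figure D3:**
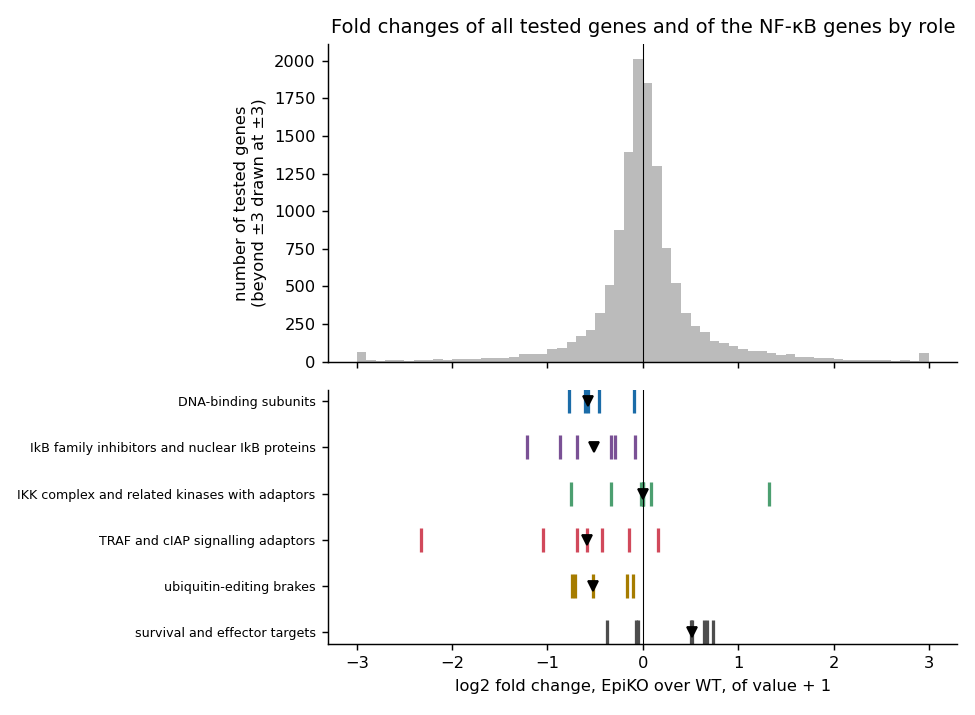
Upper panel, number of tested genes by log2 fold change of value + 1. Genes beyond ±3 are drawn at the edges. Lower panel, 1 stroke per member in its role row, with a triangle at the row's median. The tested genes centre on 0, while 4 of the 6 role medians lie between -0.59 and -0.51 and that of the survival and effector genes is at 0.51, which becomes -0.062 without WT replicate 2.

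Among the TRAF and cIAP genes, which carry signals from receptors to the kinases, 2 of 7 fell, 5 did not pass, and the median log2 fold change was -0.59. Traf1 encodes an adaptor that binds TRAF2 and the cIAPs and is itself a known NF-κB target. It measured 1096 and 1038 (WT) against 230 and 194 (EpiKO). The groups were far apart, with a WT mean 5.03 times the EpiKO mean, 1067 ± 41.3 against 212 ± 25.9 (SD, n = 2). Traf1 fell by 2.33 log2 units (SE 0.14; limma adjusted p = 0.0329) and had the rank 2 by p among the 12463 tested genes. It occupies chr2:34941750-34961772 on the minus strand (mm10), where it shares no exon with another annotated gene.

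Birc3 encodes cIAP2, a ubiquitin ligase that binds TRAF proteins and blocks cell death. It measured 3073 and 3144 (WT) against 1608 and 1402 (EpiKO). Both WT libraries lay at about the same level and both EpiKO libraries below them, with a WT mean 2.06 times the EpiKO mean. Birc3 fell by 1.05 log2 units (SE 0.12; limma adjusted p = 0.0425). Its neighbour on the minus strand of chromosome 9, Birc2, encodes the related cIAP1, which is less dependent on induction. Birc3 runs from 7848699 to 7873186 and Birc2 from 7818227 to 7837064. Birc2 measured 640 and 524 (WT) against 414 and 448 (EpiKO), and did not pass (-0.43 log2 units, limma adjusted p = 0.265).

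Traf3, the adaptor that targets NIK for degradation and so restrains the alternative route, measured 1324 and 1335 (WT) against 902 and 754 (EpiKO). The WT libraries were nearly equal and the EpiKO libraries lower, but the gene did not pass (-0.69 ± 0.13 log2 units, limma adjusted p = 0.0880). Traf2, the main adaptor of the TNF receptors, was at 581 and 540 against 346 and 403 (-0.59 ± 0.14 log2 units, limma adjusted p = 0.137). Traf6, which serves the Toll-like and IL-1 receptors and RANK, was at 810 and 759 against 769 and 657, so its groups overlapped. Traf5 was at 99.7 and 82.4 against 100.1 and 102, just above WT in both EpiKO libraries, with a log2 fold change of 0.16 (SE 0.23). The family thus ranged from -2.33 for Traf1 to 0.16 for Traf5, and the differences between its members were not tested.

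**Figure D4:**
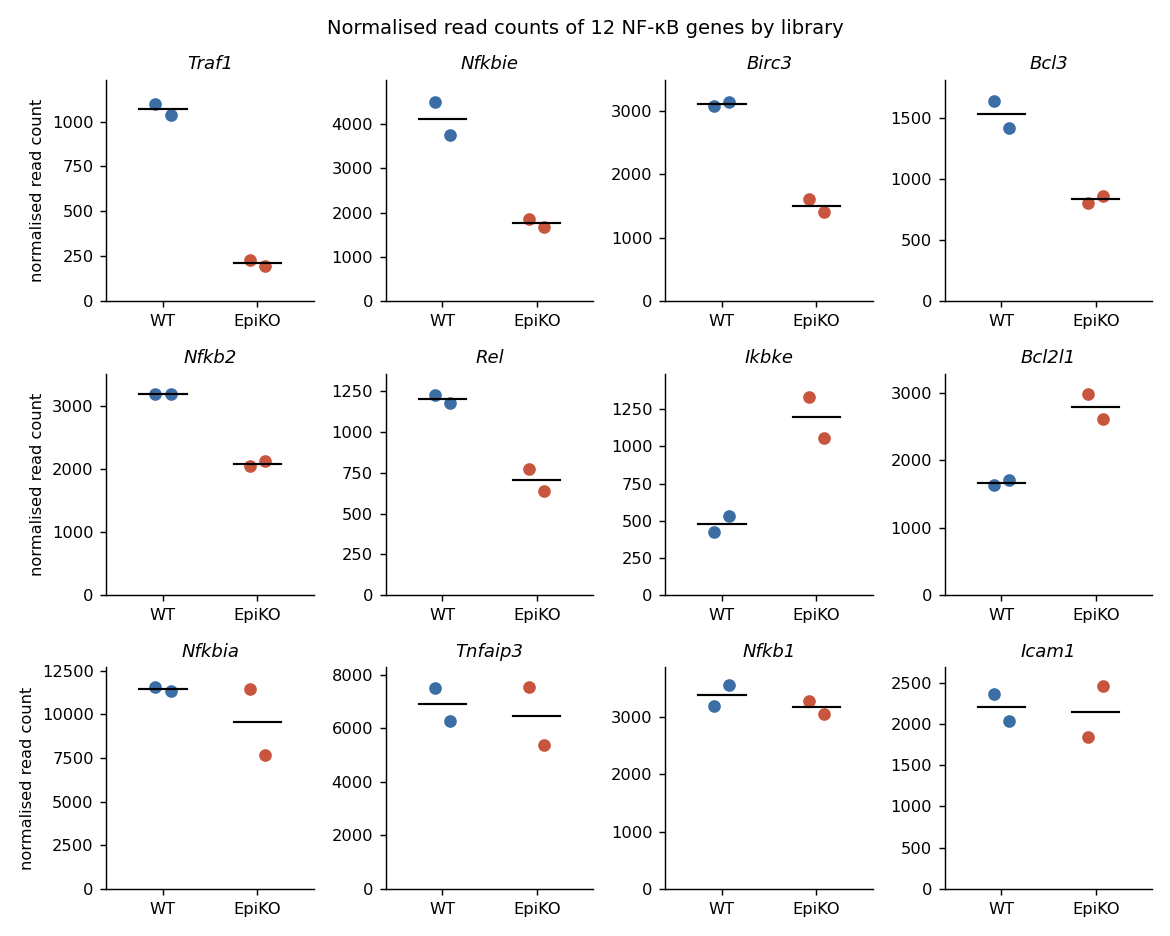
Normalised read count (vertical axis, from 0) of 12 members in each library (points, 2 per group), with the group mean as a line. Traf1, Nfkbie, Birc3, Bcl3, Nfkb2 and Rel are lower in both EpiKO libraries, Ikbke and Bcl2l1 higher in both, and Nfkbia, Tnfaip3, Nfkb1 and Icam1 overlap between the groups.

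Of the 6 IκB proteins, 1 fell and 5 did not pass, and all 6 had a negative log2 fold change, with a median of -0.51. Nfkbie encodes IκBε, an inhibitor that holds RelA and c-Rel in the cytoplasm and is induced by NF-κB. It measured 4482 and 3746 (WT) against 1846 and 1676 (EpiKO). All EpiKO values were under those of WT, with means of 4114 ± 521 and 1761 ± 121 (SD, n = 2), a ratio of 2.34. Nfkbie fell by 1.22 log2 units (SE 0.14; limma adjusted p = 0.0425). It occupies chr17:45555703-45563169 on the plus strand (mm10), just after the promoter shown above, where it shares no exon with another gene.

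Bcl3, a nuclear IκB protein that partners p50 and p52 on DNA, measured 1635 and 1418 (WT) against 807 and 859 (EpiKO). Its groups were well apart, but it just missed the threshold (-0.87 ± 0.12 log2 units, limma adjusted p = 0.0550). Nfkbiz, the nuclear protein IκBζ needed for Il6 and other secondary response genes, was at 8345 and 11290 against 6637 and 5471. The EpiKO libraries were again the lower, but the WT libraries differed from each other by more than those of Bcl3 (-0.69 ± 0.19 log2 units, limma adjusted p = 0.189). Nfkbid, the third nuclear member, was at 1553 and 1869 against 1302 and 1408 (-0.33 ± 0.13 log2 units, limma adjusted p = 0.329).

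The classical inhibitor showed no such gap. Nfkbia measured 11548 and 11344 (WT) against 11445 and 7653 (EpiKO), so EpiKO replicate 1 matched WT and only EpiKO replicate 2 was low. Its log2 fold change was -0.29 (SE 0.21), and without EpiKO replicate 2 it was -0.00012. Nfkbib, the gene of IκBβ, which is not known for strong induction, was at 828 and 756 against 754 and 737, a log2 fold change of -0.085 (SE 0.11). Within this family the mean therefore ranged from 2.34 times lower for Nfkbie to nearly equal for Nfkbib.

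None of the 5 DNA-binding subunits passed the test. In 4 of them both EpiKO libraries lay below both WT libraries, an order also found in 23.8% of all tested genes. Nfkb2, which encodes p100 and its product p52, measured 3201 and 3186 (WT) against 2057 and 2123 (EpiKO). Replicates were close and the groups apart (-0.61 ± 0.10 log2 units, limma adjusted p = 0.0733). Rel, the gene of c-Rel, which is typical of blood cells, was at 1230 and 1178 against 775 and 640. Both EpiKO libraries were below both WT libraries (-0.77 ± 0.13 log2 units, limma adjusted p = 0.0788).

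Relb, the partner of p52, measured 1194 and 1018 (WT) against 698 and 783 (EpiKO) (-0.58 ± 0.13 log2 units, limma adjusted p = 0.134). Rela, the main activating subunit, was at 2301 and 2186 against 1523 and 1753 (-0.46 ± 0.12 log2 units, limma adjusted p = 0.165). Both were below WT in both EpiKO libraries. Nfkb1, which encodes p105 and p50, was at 3194 and 3550 against 3278 and 3052, and its groups overlapped (log2 fold change -0.090, SE 0.12). The level per kilobase of Nfkb2 was 1.07 and 0.961 times that of Nfkb1 in the WT libraries and 0.672 and 0.745 times in the EpiKO libraries, a ratio for which no test was run.

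The kinases and their adaptors had no common direction, with a median log2 fold change of 0.0036 over 7 genes, none of which passed. Ikbke, an IKK-related kinase that is inducible and acts in interferon as well as NF-κB signalling, had the highest fold change of all members with all libraries kept, though not without WT replicate 1 (1.16, against 1.17 for Tnfaip2). It measured 425 and 532 (WT) against 1335 and 1058 (EpiKO), about 2.5 times higher by means. Its groups were clearly apart, yet it narrowly missed the threshold (1.32 ± 0.18 log2 units, limma adjusted p = 0.0535). Gm28913 and Gm28914, annotated on the other strand, share exon sequence with it, and without strand reads of such genes cannot be told apart.

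Tank, an adaptor that binds TRAF proteins and IKK-related kinases, had the opposite order, with 2677 and 2080 (WT) against 1367 and 1437 (EpiKO) (-0.75 ± 0.15 log2 units, limma adjusted p = 0.105). Map3k14, the gene of NIK, was at 1004 and 1009 against 756 and 846 (-0.33 ± 0.11 log2 units, limma adjusted p = 0.254). Both were below WT in both EpiKO libraries. Genes of the core IKK complex had log2 fold changes near 0. Ikbkb, the catalytic subunit of the canonical route, was at 1823 and 1901 against 1943 and 2003, a log2 fold change of 0.084 (SE 0.10; limma adjusted p = 0.774). Chuk, its sister kinase, and Ikbkg, the scaffold NEMO, both had log2 fold changes of 0.0036, which turned to -0.025 when libraries were scaled to equal totals, and Azi2, an adaptor of IKK-related kinases, had -0.016.

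The ubiquitin-editing brakes, which take signalling ubiquitin chains apart or shield them, all had negative log2 fold changes, with a median of -0.52, and none of the 5 passed. Without EpiKO replicate 2 the median was -0.16. Tnip2, a partner of A20, measured 1385 and 1124 (WT) against 775 and 746 (EpiKO) (-0.71 ± 0.14 log2 units, limma adjusted p = 0.0955). Tnip1, another A20 partner whose promoter is shown above, was at 1516 and 1444 against 1102 and 967 (-0.52 ± 0.12 log2 units, limma adjusted p = 0.128). Both were lower in each EpiKO library than in each WT library. Cyld, a deubiquitinase, was at 1202 and 1128 against 1042 and 1032 (-0.17 ± 0.10 log2 units, limma adjusted p = 0.531).

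The 2 remaining brakes varied within EpiKO. Tnfaip3, the gene of A20 and a classical NF-κB target, measured 7505 and 6291 (WT) against 7557 and 5391 (EpiKO) (-0.11 ± 0.20 log2 units, limma adjusted p = 0.866). Tnip3 was at 491 and 375 against 460 and 143 (-0.74 ± 0.56 log2 units, limma adjusted p = 0.623). In both genes, as in Nfkbia, EpiKO replicate 1 lay within or just above the WT range and EpiKO replicate 2 below it. The lower mean of Tnip3 rests on EpiKO replicate 2, without which its log2 fold change was 0.099, and that of Tnfaip3 was then 0.14.

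Survival and effector genes had a median log2 fold change of 0.51 over 8 genes, 5 of them positive and none past the threshold. This median rests on WT replicate 2, without which it was -0.062, and on 3 near-identical Bcl2a1 copies, which when summed to 1 gene gave a median of 0.23 over 6 genes. Bcl2l1, which encodes the anti-apoptotic protein BCL-XL, measured 1633 and 1700 (WT) against 2973 and 2608 (EpiKO). Both EpiKO libraries were above both WT libraries, 1.67 times by means, and the gene missed the threshold (0.74 ± 0.12 log2 units, limma adjusted p = 0.0664). Cflar, which encodes the caspase-8 inhibitor c-FLIP, had the opposite order, at 2318 and 2528 against 1799 and 1946 (-0.37 ± 0.11 log2 units, limma adjusted p = 0.209). Thus 2 survival genes with known κB control, Bcl2l1 and Cflar, lay on different sides of WT.

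The A1 genes encode a short-lived relative of BCL-2 that is typical of myeloid cells, and in mice they form near-identical copies on chromosome 9. Their coding sequences differ at 12 of 516 positions. The first 120 coding bases are shown for the 3 copies from GENCODE M21 transcripts, with the 7 positions that differ among them in capitals, because these letters set how well reads can be assigned.
Bcl2a1a, gene at chr9:88956900-88962419, plus strand: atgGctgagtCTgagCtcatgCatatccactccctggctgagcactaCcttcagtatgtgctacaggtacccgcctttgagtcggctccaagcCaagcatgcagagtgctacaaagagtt
Bcl2a1b, gene at chr9:89199209-89207827, plus strand: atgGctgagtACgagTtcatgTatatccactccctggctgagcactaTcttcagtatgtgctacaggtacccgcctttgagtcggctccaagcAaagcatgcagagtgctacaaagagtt
Bcl2a1d, gene at chr9:88723285-88731914, minus strand: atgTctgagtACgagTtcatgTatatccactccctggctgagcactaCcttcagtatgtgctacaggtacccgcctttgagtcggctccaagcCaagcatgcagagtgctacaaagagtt
Transcript identity was 98.2% between Bcl2a1a and Bcl2a1b, 98.8% between Bcl2a1a and Bcl2a1d, and 99.1% between Bcl2a1b and Bcl2a1d. Of all stretches of 50 bases, 67.7% in Bcl2a1a, 57.6% in Bcl2a1b and 79.5% in Bcl2a1d also occur in another copy. The split of reads among the copies is therefore uncertain.

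Bcl2a1b measured 2398 and 1467 (WT) against 3075 and 2893 (EpiKO) (0.67 ± 0.25 log2 units, limma adjusted p = 0.299). Bcl2a1d was at 125 and 78.2 against 183 and 130 (0.64 ± 0.32 log2 units, limma adjusted p = 0.426), and Bcl2a1a at 326 and 166 against 462 and 240. WT replicate 2 was the lowest library for all 3 copies. With 1 library left out, the log2 fold change by limma ranged from 0.31 to 1.02 for Bcl2a1b, 0.30 to 0.97 for Bcl2a1d and 0.032 to 1.00 for Bcl2a1a, lowest in each case without WT replicate 2. Summed over the copies, the values were 2849 and 1711 in WT and 3719 and 3263 in EpiKO, with a log2 fold change of 0.66 (SE 0.26; limma adjusted p = 0.329). Bcl2a1b took 82.7% to 88.6% of the sum in every library, so the shares were similar in both groups.

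The 3 effector genes gave no call, and their groups overlapped. Icam1, the adhesion molecule for leukocyte integrins and a classical κB target, measured 2368 and 2036 (WT) against 1839 and 2457 (EpiKO), with the EpiKO libraries on both sides of WT (log2 fold change -0.047, SE 0.18). Sod2, the mitochondrial superoxide dismutase, was at 1499 and 1247 against 1367 and 1230 (log2 fold change -0.077, SE 0.14). Tnfaip2 was at 1855 and 736 against 1886 and 1459, with WT replicate 2 alone low, and without that library its log2 fold change turned from 0.51 to -0.16.

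With 1 library left out, a group has a single library that is assumed to vary like the other group, and by limma only 0 to 4 of all tested genes passed as lower and 0 to 2 as higher. No member passed in these fits, and the adjusted p by limma lay between 0.0617 and 0.162 for Traf1, 0.111 and 0.184 for Nfkbie, and 0.10 and 0.209 for Birc3. Their log2 fold changes stayed between -2.46 and -2.21, -1.35 and -1.09, and -1.15 and -0.95 in these fits. edgeR on the whole reads recovered from the values called the same 3 members lower (7.89%, against 0.530% of tested genes) and none higher (against 0.433%). DESeq2 on those reads called 11 members lower (28.9%, against 3.12% of tested genes) and 2 higher (5.26%, against 3.73%). The 11 were Traf1, Nfkbie, Birc3, Bcl3, Nfkb2, Rel, Tank, Traf3, Tnip1, Tnip2 and Nfkbiz, and the 2 were Ikbke and Bcl2l1. With DESeq2, Traf1, Nfkbie, Birc3 and Ikbke were called in 4 of 4 fits that left out a library, under the same assumption.

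Receptors and signalling proteins above the members gave no call. Of 19 tested receptors, 11 had a positive and 8 a negative log2 fold change, with a median of 0.065. Tlr6 measured 240 and 329 (WT) against 449 and 417 (EpiKO) (0.62 ± 0.19 log2 units, limma adjusted p = 0.217). The endotoxin receptor gene Tlr4 measured 1360 and 1466 against 3136 and 1864 (0.78 ± 0.26 log2 units, limma adjusted p = 0.257). Tnfrsf11a, the gene of RANK, the receptor that drives osteoclast formation through NF-κB, had the opposite order, at 2555 and 4114 against 1956 and 1856 (-0.77 ± 0.24 log2 units, limma adjusted p = 0.234). Of 32 signalling proteins such as MyD88, IRAK and TAK1 components, 20 were positive and 12 negative, with a median of 0.048. Map3k8, the gene of the kinase TPL2, was at 876 and 743 against 452 and 562 (-0.68 ± 0.16 log2 units, limma adjusted p = 0.142). Peli1, which encodes a ubiquitin ligase, was at 1307 and 930 against 689 and 745 (-0.62 ± 0.19 log2 units, limma adjusted p = 0.211). The adaptor gene Tirap was at 447 and 484 against 587 and 600 (0.35 ± 0.12 log2 units, limma adjusted p = 0.246). Both groups were apart in each of these 6 genes, which their choice as the 3 smallest p of each list favours, and none passed. Over the lists, 7 of 19 receptors were higher and 3 lower in EpiKO without overlap. Of the 32 signalling proteins, 4 were higher and 8 lower without overlap, and 20 overlapped. The shares over all tested genes were 23.3% higher and 23.8% lower.

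Other genes known as NF-κB targets, mostly secreted mediators, had a positive median where subunits and inhibitors had negative ones. Of 28 tested, 2 rose (against 0.417% of all tested genes), none fell and 26 did not pass, and their median log2 fold change was 0.54. The 2 groups did not overlap for 21 of them, 13 higher and 8 lower in EpiKO, where the shares over all tested genes were 23.3% and 23.8%. The 8 lower ones were Tnf, Cxcl10, Ccl5, Il12b, Lcn2, Mmp9, Gadd45b and Zc3h12a, so secreted mediators lay on both sides. Their log2 fold changes ran from -0.60 for Tnf to -1.67 for Lcn2, none past the test. Csf1 rose by 2.00 (SE 0.21; limma adjusted p = 0.0425), from 269 and 197 to 814 and 1053, and Nos2 by 3.93 (SE 0.45; limma adjusted p = 0.0471), from 56.8 and 24.4 to 702 and 487. Il6 was at 25.5 and 12.6 against 139 and 89.8 and did not pass (2.57 ± 0.45 log2 units, limma adjusted p = 0.0816). Traf1 and Nfkbie fell in these same libraries, and all 4 genes are known for κB control. A promoter match was found for 9 of 22 listed targets with an entry (40.9%), close to the share among the members.

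Of 7 markers of dendritic cells and Langerhans cells, 4 passed the minimum, of which 1, Cd207, fell and 3 did not pass the test, and Xcr1, Clec9a and Siglech were too low to test. Cd207, the langerin gene, measured 1201 and 590 (WT) against 23.7 and 23.6 (EpiKO) (limma adjusted p = 0.0329). Ccr7, a marker of migrating dendritic cells, was at 116 and 56.3 against 32.3 and 35.9 (limma adjusted p = 0.258), and Flt3 at 22.0 and 46.2 against 5.38 and 21.7 (limma adjusted p = 0.457). Zbtb46, which defines classical dendritic cells, overlapped between the groups, at 26.7 and 19.3 against 22.6 and 23.6. The part of these cells in the lower values of Traf1, Nfkbie, Birc3 and the subunits was not tested.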

How the data were processed

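Sorted CD11b and CD200R1 positive cells gave 2 WT and 2 EpiKO libraries, whose replicate numbers follow sample order and pair nothing. Per the labels' protocols, mRNA was pulled down by its poly-A tail before an Illumina TruSeq preparation. The submitters' processing notes name bcl2fastq 2.17, STAR 2.5.2b, featureCounts 1.5.0-p3, DESeq2 and build mm10. For annotation, strandedness and multiply aligned reads the setting is not given in the sources used here. As deposited, the table holds a signal, in which each library's read counts carry a common scaling by the authors. Indeed 100% of its values were whole multiples of what 1 read is worth (0.841 to 1.16) within 1e-06 reads, so whole reads could be recovered. Reads are not independent molecules, and counting error is not the spread between libraries.

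Main tests used limma 3.58.1 in R 4.3.3 (trend, robust, two-sided) on log2(value + 1) of the 12463 genes reaching 10 in at least 2 libraries. Benjamini-Hochberg adjustment covered all of them, and an adjusted p under 0.05 made a call: 66 genes lower, 52 higher. With 2 against 2 libraries an exact permutation test cannot go below p = 0.333. Other settings tried were a pseudocount of 0.5 or 5, no minimum or one of 50, equal totals, quantile normalization, no trend, a threshold of 0.1, summed Bcl2a1 copies, edgeR 4.0.16 and DESeq2 1.42.0 on recovered reads, and each library left out. DESeq2 with a library left out was chosen after seeing the data. The code of the limma, edgeR and DESeq2 fits was run on simulated counts with the same spread for every gene. Real genes differ in spread, so this does not test the calls made here. Members and lists were chosen with earlier results of these data known. Called members and the 4 smallest p of each role get full statistics, and other lists their 3 smallest p. Other genes named were chosen after their values were seen. Coordinates follow GENCODE M21. Exon sequence is shared with a gene on the other strand by 8 members (Nfkb2, Nfkbib, Bcl3, Ikbkg, Ikbke, Traf5, Icam1 and Tnfaip2) and with one on the same strand by 3 (Map3k14, Traf5 and Bcl2a1b). Markers Ly6g and Trac were not matched, and Jchain was matched as Igj.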

Additional observations from a re-analysis of the deposited data

How the results depend on the processing

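With all libraries kept, the 38 members gave 415 values under 11 alternatives, of which 393 kept direction and side of the threshold. The 2 that reversed were Chuk and Ikbkg, both at -0.025 under equal library totals. The members called were 11 lower and 2 higher with DESeq2, and 8 lower and 2 higher at a threshold of 0.1. With limma without trend 1 was lower, and Nfkbie (limma adjusted p = 0.0947) and Birc3 (limma adjusted p = 0.0952) missed the threshold. With no filter 3 were lower and 1 higher, Ikbke (limma adjusted p = 0.0438). Over all genes the calls were 389 lower and 465 higher with DESeq2, and 202 lower and 226 higher at a threshold of 0.1. They were 18 lower and 13 higher with limma without trend, and 81 lower and 77 higher of 16235 genes with no filter. Leaving out 1 library gave, by limma, 0 members lower and 0 higher, 0 to 4 genes lower and 0 to 2 higher, and a member median of -0.29 to -0.21. With DESeq2 it gave 3 to 7 members lower and 1 to 3 higher, 112 to 249 genes lower and 117 to 279 higher, and a member median of -0.30 to -0.21. The cause of these differences was not tested. In the limma fits 8 members changed sign in some fit (Azi2, Chuk, Icam1, Ikbkg, Sod2, Tnfaip2, Tnfaip3 and Tnip3), and in the DESeq2 fits also Bcl2a1a and Nfkbia. Over both tools these changes ranged over -0.058 to 0.026 for Azi2, -0.087 to 0.097 for Chuk, -0.26 to 0.16 for Icam1, -0.11 to 0.11 for Ikbkg, -0.21 to 0.066 for Sod2, -0.16 to 1.19 for Tnfaip2, -0.35 to 0.14 for Tnfaip3, -1.60 to 0.099 for Tnip3, -0.028 to 1.09 for Bcl2a1a and -0.58 to 0.0026 for Nfkbia. No paired analysis was possible because the labels give no replicate number shared between the groups.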

Other observations

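Regulators of cell death outside the NF-κB list gave no call among 24 tested genes, with 14 positive and 10 negative log2 fold changes and a median of 0.043. The 3 with the smallest p encode BH3-only proteins, which trigger mitochondrial cell death. Bbc3, the gene of PUMA, measured 490 and 393 (WT) against 220 and 238 (EpiKO) (-0.94 ± 0.17 log2 units, SE; limma adjusted p = 0.0824). Bcl2l11, the gene of BIM, was at 2209 and 1690 against 1213 and 1110 (-0.73 ± 0.16 log2 units, SE; limma adjusted p = 0.119), and Pmaip1, the gene of NOXA, at 1611 and 1483 against 604 and 995 (-0.99 ± 0.25 log2 units, SE; limma adjusted p = 0.164). All 3 were lower in each EpiKO library than in either WT library, which their choice by smallest p favours. Of the 24 genes, 12 overlapped between the groups, as did 6589 of the 12463 tested genes. Without overlap, 7 were higher and 5 lower in EpiKO, where the shares over all tested genes were 23.3% and 23.8%. The anti-apoptotic gene Mcl1, picked with its values known, measured 33925 and 26399 against 25438 and 19351. It did not pass (-0.43 ± 0.21 log2 units, SE; limma adjusted p = 0.404). Bcl2l2 of the same list had the opposite order, at 467 and 411 against 585 and 519, and did not pass (0.33 ± 0.14 log2 units, SE; limma adjusted p = 0.343).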
